A study of Mus musculus with 9 samples.

Results

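The comparison described here sets 3 brain libraries labelled Tfap2b+/- against 3 wild-type brain libraries, across all genes. These 6 libraries were taken, by their titles, from 9 in the series. The other 3 libraries are labelled Tfap2a+/-, and they enter the fit for the estimate of spread and as a second reference group. All 9 came from adult male mice of 3 to 4 months, and the wild-type libraries carry the strain name B6N. A heterozygote, written +/-, has 1 intact and 1 mutated copy of the gene. How the mutated alleles were built, whether the mutants share the B6N background, which part of the brain was taken and whether each library came from its own animal are not given in the sources used here. The p-values therefore measure the spread between these libraries, which may be technical. The files list 54446 genes, of which 17355 had enough counts to be tested.

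Tfap2b encodes AP-2 beta, a transcription factor of the AP-2 family, whose members bind GC-rich palindromes as dimers. AP-2 proteins act in the development of the neural crest, kidney, heart and limb, and AP-2 beta and AP-2 delta mark neurons of the midbrain roof. AP-2 genes have also been tied to the control of sleep in worms, flies and mice. Neuronal firing and calcium entry switch on immediate early genes within minutes, through CREB and serum response factor already bound near their promoters. The transcription factors among these genes then act on slower effector genes, which encode secreted peptides and synaptic proteins.

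The 6 libraries held between 21946800 and 29214975 counts in genes. Levels are given as CPM, the count of a gene scaled to the library's total. Every library was male by its transcripts. The Y-linked helicase gene Ddx3y lay between 62.1 and 84.4 CPM in the 9 libraries, and Xist, the RNA that silences an X chromosome in females, did not exceed 0.264 CPM. Snap25, a presynaptic fusion protein of neurons, lay between 2386 and 3316 CPM in wild type and between 2152 and 2622 CPM in the group labelled Tfap2b+/-, ranges that overlapped.

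The libraries were uneven in regional make-up, both within and between the groups. Library 1 labelled Tfap2b+/- stood 3.63 log2 units above the wild-type mean for markers of the tectum and midbrain and 2.79 above it for markers of serotonergic neurons. Library 2 of the same group stood 1.64 higher for thalamic markers and 1.80 higher for tectal markers, and library 3 stood 2.10 higher for olfactory bulb markers. Among the wild-type libraries, number 2 stood 2.97 above the mean for choroid plexus, the tissue that makes cerebrospinal fluid, and number 3 stood 2.07 above it for tectum and midbrain. For choroid plexus, the summed level of 16 markers was between 350 and 5262 CPM in wild type and between 236 and 736 CPM in the group labelled Tfap2b+/-. Summed tectal and midbrain markers ran from 123 to 168 CPM in wild type and from 129 to 316 CPM in the other group. In bulk tissue, fewer cells of a type cannot be told apart from less RNA in each cell. For this reason a second fit had 2 covariates, the first 2 principal components of 104 region marker genes, which held 57.0% and 14.0% of the variance of those genes. Its values are given beside those of most gene lists below. For a gene that is itself among the 104, such as Tfap2b, Tfap2d, Tph2 or Th, or for a region list, the covariates contain the gene's own level, so a smaller fold in that fit follows in part from its construction.

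**Figure D1:**
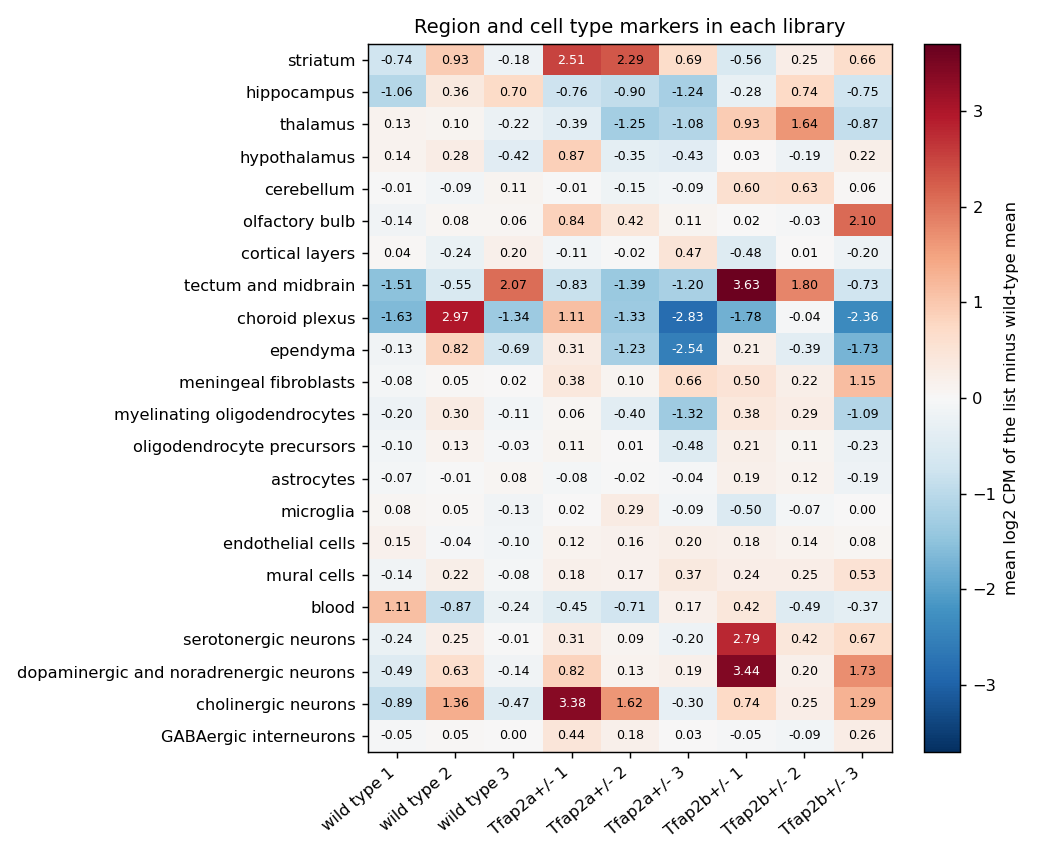
Heat map of marker lists (rows) in the 9 libraries (columns). Each cell gives the mean log2 CPM of the list minus its wild-type mean, in blue where lower and red where higher. Library 1 labelled Tfap2b+/- shows 3.63 for tectum and midbrain, and wild-type library 2 shows 2.97 for choroid plexus.

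The targeted gene was read first. Tfap2b (ENSMUSG00000025927.13) occupies chr1:19208914-19238576 on the plus strand of GRCm38. Its level was 2.25, 0.715 and 14.8 CPM in the wild-type libraries and 32.9, 8.90 and 5.81 CPM in the group labelled Tfap2b+/-. The groups overlapped, and the means were in the order opposite to the loss of 1 copy. The log2 fold was 1.42 (SE 0.98, adjusted p = 0.598). Without library 1 labelled Tfap2b+/- and wild-type library 2, a pair chosen after seeing the data, the log2 fold was -0.21. With 1 library left out the fold stayed above 0, from 0.32 without library 1 labelled Tfap2b+/- to 3.44 without wild-type library 3. A count over all exons of the gene does not show whether a deleted part is missing from some transcripts, so these counts do not check the genotype, and the group is called by its label throughout.

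Tfap2d, the AP-2 delta gene next to Tfap2b on the same chromosome, was at 0.0470, 0.941 and 0.965 CPM in wild type and at 7.87, 1.15 and 2.98 CPM in the group labelled Tfap2b+/-. All 3 of the latter lay above all 3 wild-type values, and the log2 fold was 2.58 (SE 0.88, adjusted p = 0.425). Library 1, the highest for Tfap2d and Tfap2b, was also the highest in the mean log2 level of tectal markers, of which Tfap2b and Tfap2d are members. The summed level of that list, which its most abundant genes set, was 297 CPM in library 1 and 316 CPM in library 3. The part of tectal cells in the Tfap2d value was not tested. Tfap2a stayed between 0.113 and 1.59 CPM in the 6 libraries, Tfap2c did not exceed 0.754 CPM, and Tfap2e had no counts. A count of 0 allows up to 3 counts, which is 0.103 to 0.137 CPM in these libraries, for counting error only. Of 77 genes tested within 10 Mb of Tfap2b, 10 had an unadjusted p under 0.05, or 13.0%, against 10.6% of all genes tested. All 3 libraries of one group lay above all 3 of the other in 22.1% of these 77, against 16.5% of all genes tested. Of the neighbours so separated, 11 were higher and 6 lower in the libraries labelled Tfap2b+/-.

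No gene passed an adjusted p of 0.05 in edgeR (0 of 17355, 0.0%), and 0.187 was the lowest value reached. The unadjusted p was under 0.05 for 1841 genes, 10.6% of those tested, with 1121 higher (6.46%) and 720 lower (4.15%) in the libraries labelled Tfap2b+/-. DESeq2, a second count test run on the same table, called 175 genes (1.01%), 122 higher and 53 lower. In 2859 genes (16.5%) the groups did not overlap: all 3 libraries of one lay above all 3 of the other. Of these, 1534 (8.84%) were higher and 1325 (7.63%) were lower in the libraries labelled Tfap2b+/-. A stricter rule asked which differences hold in every library. The groups must not overlap, the mean must reach 1 CPM, and the log2 fold must be at least 0.5 in size with the same sign in each of 6 fits that left out 1 library. It was met by 336 of 14750 genes at that level (2.28%), of which 267 were higher (1.81%) and 69 lower (0.468%). Genes near 1 CPM can pass that minimum through the group where they are high, and the other group's mean was below 1 CPM for 82 of the higher and 8 of the lower genes. With at least 1 CPM asked of each group, 185 higher and 61 lower genes were left, and with a mean of at least 5 CPM 77 higher and 49 lower. All 336 kept their direction with the regional components in the model, 206 of the higher and 57 of the lower ones at an unadjusted p under 0.05. The rule chose these genes by their direction in the same libraries, so this follows in part from the choice. The components come from region genes alone. For choroid plexus markers, which are not among those genes, the list's median was -2.36 without the components and -2.67 with them.

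Immediate early genes were lower in the libraries labelled Tfap2b+/-. All 30 members of the list had a log2 fold below 0, with a median of -0.99, while the median of all genes tested was -0.00 and 49.7% of them were higher. None passed edgeR after adjustment, 25 of the 30 had an unadjusted p under 0.05, and 12 passed DESeq2. Of all genes tested, 4.15% were lower at that unadjusted p and 0.305% were lower by DESeq2. In 22 members the groups did not overlap, against 7.63% of all genes tested that were lower without overlap. The rule for every library was met by 17, against 0.468% lower among genes at 1 CPM or more. With the regional components the 30 folds were again all below 0, with a median of -1.27.

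Arc, a synaptic protein that removes glutamate receptors from the surface, stood at 258, 129 and 463 CPM in wild type and at 51.6, 63.1 and 43.9 CPM in the group labelled Tfap2b+/-. Every one of the latter was below the lowest wild-type library, and the 3 lay close together. Its log2 fold was -2.42 (SE 0.48, adjusted p = 0.260). Dusp1, a phosphatase that shuts off MAP kinases, had 34.9, 26.2 and 52.6 CPM in wild type and 13.8, 14.1 and 13.5 CPM in the other group (log2 fold -1.46, SE 0.26, adjusted p = 0.228). Wild-type library 3 was the highest for both genes.

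Npas4, a transcription factor induced by calcium entry in neurons, was at 19.9, 9.41 and 45.1 CPM in wild type against 4.55, 5.36 and 7.69 CPM. Fos, which pairs with Jun proteins in the AP-1 factor, was at 23.5, 16.3 and 90.5 CPM against 14.2, 13.4 and 10.9 CPM. For Fos and Npas4 the groups did not overlap, but wild-type library 2 lay close to the other group and library 3 far above it. The log2 folds were -2.08 for Npas4 and -1.76 for Fos. Without wild-type library 3 they were -1.32 for Npas4 and -0.63 for Fos.

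The zinc finger factor Egr3 was less dependent on that library. It had 234, 294 and 362 CPM in wild type and 60.0, 152 and 137 CPM in the group labelled Tfap2b+/-, with library 1 the lowest. Its log2 fold was -1.35 (SE 0.31, adjusted p = 0.302). Fosb (-1.73), the orphan nuclear receptor Nr4a1 (-1.51), the antiproliferative gene Btg2 (-1.48), Junb (-1.43) and Ier2 (-1.29) had log2 folds of like size, each with groups that did not overlap. Wild-type library 3 was again the highest for each of these genes. Its counts were 1235 for Btg2, 4725 for Nr4a1 and 2857 for Junb. Wild-type library 1 had 422, 2199 and 1052 counts of the same genes, and library 2 had 410, 1365 and 1077. Ier2 values in the libraries labelled Tfap2b+/- were 3.92, 3.98 and 4.04 CPM, below the wild-type range of 5.23 to 13.4 CPM.

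In other members the groups overlapped. Egr1, often used as a marker of recent activity, was at 273, 135 and 465 CPM in wild type and at 97.7, 172 and 165 CPM in the other group, so the groups overlapped (log2 fold -1.01, adjusted p = 0.458). The clock gene Per1, which is also induced by activity, had a log2 fold of -0.25, and the Krueppel-like factor gene Klf4 had -0.11. Without wild-type library 3 the folds of Per1 and Klf4 were 0.02 and 0.26, the list's median was -0.69, and 27 of 30 members were below 0, 14 at an unadjusted p under 0.05. The mean log2 level of the list stood 0.65 above the wild-type mean in wild-type library 3 and at -0.31 and -0.33 in libraries 1 and 2. In the libraries labelled Tfap2b+/- it stood at -1.32, -0.92 and -0.82, below every wild-type and Tfap2a+/- library.

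**Figure D2:**
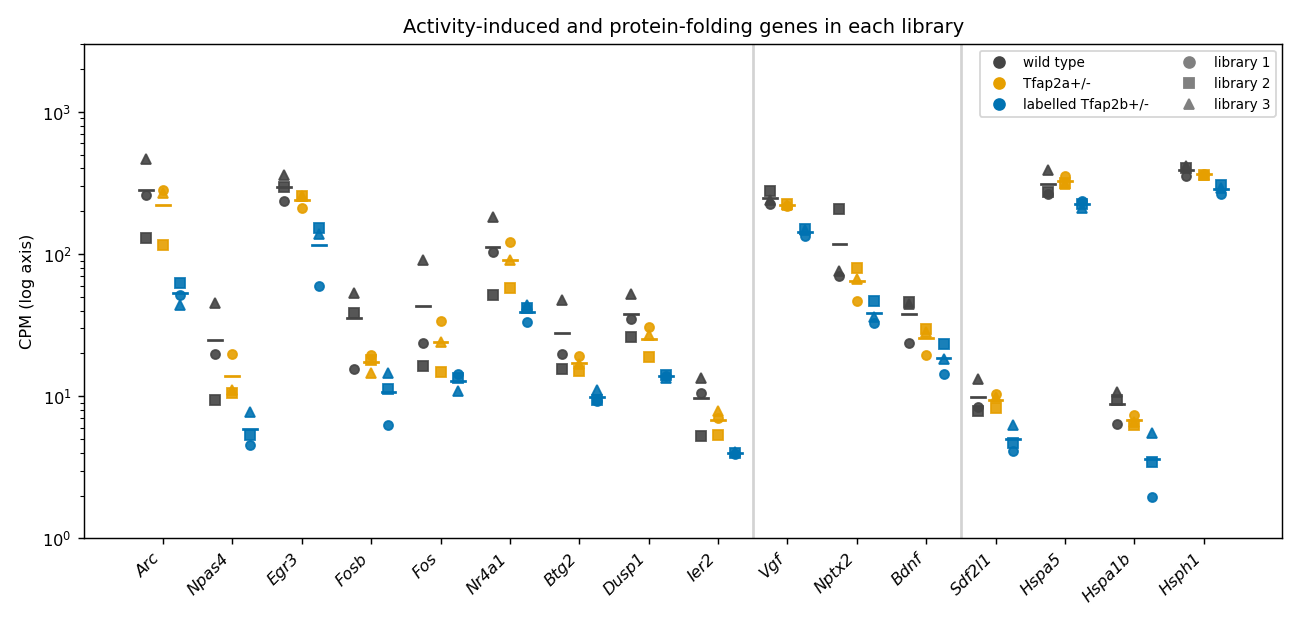
CPM on a log axis for 16 genes in the 9 libraries, with a marker shape for each library number and a short line at each group's mean. The left block holds immediate early genes, the middle block late effectors and the right block protein-folding genes. For Arc, the 3 libraries labelled Tfap2b+/- sit between 43.9 and 63.1 CPM, below the lowest wild-type library at 129 CPM.

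The promoters of 4 immediate early genes are shown because they carry the motif through which CREB acts, the cAMP response element (CRE). Each run is 100 bases of the sense strand of GRCm38.p6, 5′ to 3′, from RefSeq, and capitals mark the full element TGACGTCA (Dusp1, Btg2) or its short form TGACG, on either strand (Npas4, Fos). Dusp1 runs from 163 to 64 bases before the transcription start (chr17:26508536-26508635, minus strand), Btg2 from 186 to 87 (chr1:134079242-134079341, minus), Npas4 from 199 to 100 (chr19:4990071-4990170, minus) and Fos from 149 to 50 (chr12:85473741-85473840, plus).
Dusp1: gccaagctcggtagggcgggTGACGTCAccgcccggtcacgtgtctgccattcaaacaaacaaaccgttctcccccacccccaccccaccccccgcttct
Btg2: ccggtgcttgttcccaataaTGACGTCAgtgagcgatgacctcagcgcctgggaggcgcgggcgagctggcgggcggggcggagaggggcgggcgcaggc
Npas4: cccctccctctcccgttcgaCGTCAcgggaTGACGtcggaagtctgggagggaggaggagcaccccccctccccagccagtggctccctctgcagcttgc
Fos: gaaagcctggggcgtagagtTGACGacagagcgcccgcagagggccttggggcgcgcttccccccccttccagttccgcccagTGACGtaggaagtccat

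The 250 bases before the start were searched on both strands. A RefSeq promoter was matched for 23 of the 30 immediate early genes. The short form was present in 17 of these 23 (73.9%), in 12 of 17 late effectors with a promoter (70.6%), in 10 of 17 cytosolic heat shock chaperones (58.8%), in 7 of 19 ER chaperones (36.8%) and in 19.8% of 27025 genes in the RefSeq table. It is contained in every full element, which was found in 3 of the 23 (13.0%) and in 1.77% of all genes. The AP-2 palindrome GCCNNNGGC was found in 6 of the 23 (26.1%), in 4 of the 17 late effectors (23.5%), in 8 of the 17 heat shock chaperones (47.1%), in 4 of the 19 ER chaperones (21.1%) and in 15.4% of all genes. A match is a run of letters and not a measured binding site.

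Late effectors of activity were lower too, in a smaller share. Of 24 members 22 had a log2 fold below 0, with a median of -0.49 and of -0.50 with the regional components, 11 at an unadjusted p under 0.05 and 6 that met the rule for every library. The shares among all genes were 4.15% lower at that p and 0.468% lower by the rule. Vgf, the precursor of secreted neuropeptides, had the smallest p among the lower genes. Its levels were 223, 279 and 238 CPM in wild type, at 133, 149 and 147 CPM in the group labelled Tfap2b+/- and at 217, 224 and 222 CPM in the Tfap2a+/- libraries. Neither wild type nor Tfap2a+/- overlapped with the libraries labelled Tfap2b+/- (log2 fold -0.79 against wild type, SE 0.10, adjusted p = 0.187).

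Nptx2, a secreted pentraxin that clusters AMPA receptors, was at 70.2, 206 and 76.4 CPM in wild type and 32.6, 46.7 and 35.9 CPM in the other group (log2 fold -1.62, SE 0.41, adjusted p = 0.320). Leaving out wild-type library 2, by far the highest, gave a fold of -0.92. Bdnf, the neurotrophin that supports synaptic growth, stood at 23.8, 45.8 and 44.9 CPM against 14.3, 23.4 and 18.3 CPM (log2 fold -1.03, adjusted p = 0.350), and the groups came close without overlapping. Ptgs2, the inducible cyclooxygenase, had a log2 fold of -1.53, Arl4d of -1.19 and Nptx1 of -0.81. Without wild-type library 2 and library 1 labelled Tfap2b+/- the median of the 24 was -0.25, and 5 had an unadjusted p under 0.05. Of the neuronal markers, Rbfox3 (NeuN) lay between 261 and 325 CPM in wild type and at 166, 256 and 279 CPM in the other group. The summed markers of cortical layers lay between 1076 and 1387 CPM in wild type and at 914, 1181 and 1234 CPM in the other group. Library 1 labelled Tfap2b+/- was the lowest of the 6 for both.

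Genes outside these lists had like values. Csrnp1, which encodes a nuclear protein, stood at 11.3, 15.5 and 14.7 CPM in wild type and 5.05, 5.97 and 6.71 CPM in the group labelled Tfap2b+/- (log2 fold -1.23, SE 0.18, adjusted p = 0.195). Sertad1 and Ccn1 were named after their values were seen. Sertad1 had a log2 fold of -1.30. Ccn1, a secreted matrix protein, was at 6.20, 4.78 and 21.9 CPM in wild type, with library 3 far above the others, and at 2.15, 1.69 and 3.09 CPM in the other group. Of the 69 lower genes that met the rule for every library, 23 belong to the immediate early or late effector lists.

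Chaperones of the endoplasmic reticulum (ER), which fold secreted and membrane proteins, were lower by small amounts. All 21 members had a log2 fold below 0, with a median of -0.25 and a median of -0.33 with the regional components. The groups did not overlap in 12, and 11 had an unadjusted p under 0.05. Of all genes tested, 7.63% were lower without overlap and 4.15% were lower at that p. Hspa5 (BiP), the main ER chaperone, was at 263, 273 and 392 CPM in wild type and at 237, 225 and 210 CPM in the group labelled Tfap2b+/- (log2 fold -0.46, SE 0.15, adjusted p = 0.397). Its wild-type library 3 stood apart from the other two, and without it the fold was -0.26. Dnajb11, a partner of BiP, was at 48.8, 44.6 and 55.6 CPM against 36.9, 38 and 39.3 CPM (log2 fold -0.38, SE 0.09, adjusted p = 0.292). Sdf2l1, another BiP partner, had the largest fold of the list at -0.97 and was the one member that met the rule for every library, with 8.45, 7.87 and 13.2 CPM against 4.09, 4.68 and 6.26 CPM. Xbp1 (-0.42), whose spliced form drives ER chaperone genes, Manf (-0.46) and the calcium-binding chaperone gene Calr (-0.30) also had groups that did not overlap. Without wild-type library 3 the list's median was -0.17 and 18 of 21 members were below 0.

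The ER stress element, bound by ATF6 together with NF-Y, was searched in the same window as a CCAAT box followed, after 9 bases of any kind, by CCACG. It was found in 8 of the 19 ER genes with a promoter (42.1%) and in 0.130% of all genes. The stretches of Hspa5 (chr2:34771990-34772089, plus strand, 100 to 1 bases before the start) and Pdia6 (chr12:17266471-17266570, plus, 118 to 19 bases before it) show it in capitals.
Hspa5: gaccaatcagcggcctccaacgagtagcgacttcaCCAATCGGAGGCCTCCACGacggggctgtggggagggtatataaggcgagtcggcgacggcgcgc
Pdia6: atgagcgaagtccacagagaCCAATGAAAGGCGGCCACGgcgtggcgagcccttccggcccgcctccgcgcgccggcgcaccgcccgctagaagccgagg
Pdia6, a disulfide isomerase, stood at 86.4, 80.9 and 111 CPM in wild type and 70.6, 71.9 and 73.7 CPM in the other group (log2 fold -0.36, adjusted p = 0.376).

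Cytosolic heat shock chaperones had a median log2 fold of -0.15 (-0.22 with the regional components), with 18 of 21 below 0, 7 of them at an unadjusted p under 0.05. Among all genes tested 4.15% were lower at that p. Hsph1, a nucleotide exchange factor for HSP70, had the smallest p. It was at 352, 403 and 413 CPM in wild type and 263, 304 and 291 CPM in the group labelled Tfap2b+/- (log2 fold -0.45, SE 0.09, adjusted p = 0.262). Dnajb1, an HSP40 co-chaperone, had a log2 fold of -0.40 and Hsp90ab1 of -0.24, both with groups that did not overlap. The inducible HSP70 gene Hspa1b stood at 6.39, 9.45 and 10.7 CPM against 1.94, 3.44 and 5.54 CPM. Hspa1a, its near-identical neighbour, had a log2 fold of -0.58, and because reads of the pair can be split or lost in counting, both values are uncertain.

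Glucocorticoid-responsive genes, which follow the stress hormone corticosterone, had a median log2 fold of -0.38 (-0.44 with the regional components) with all 16 below 0, 5 at an unadjusted p under 0.05. Among all genes tested 4.15% were lower at that p. Without wild-type library 3 the median was -0.14, with 13 below 0. Sgk1, a kinase gene of this list, showed the same library: 54.9, 66.9 and 105 CPM in wild type against 43.2, 48.2 and 47.1 CPM. Dusp1 and Per1 belong to this list and to the immediate early genes.

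Clock genes and genes tied to sleep were divided in direction. Of 21 clock genes 10 were higher and 11 lower, with a median of -0.04 that was above 0 without wild-type library 3 (0.047) or library 1 labelled Tfap2b+/- (0.018), and 2 had an unadjusted p under 0.05. That p was reached by 10.6% of all genes tested, a share close to that of the list. Csnk1d, the kinase that times PER protein decay, was at 122, 136 and 136 CPM in wild type and 111, 115 and 115 CPM in the other group (log2 fold -0.21, adjusted p = 0.383). Of 26 kinase, channel and receptor genes with known effects on sleep, 9 were higher and 17 lower, with a median of -0.20. Homer1, a postsynaptic scaffold whose short form is induced by activity, had the smallest p of these. Its levels were 288, 245 and 432 CPM in wild type and 94.4, 221 and 223 CPM in the other group (log2 fold -0.84, adjusted p = 0.462), with library 1 the lowest. Chrm1, a muscarinic receptor gene, was at 204, 207 and 216 CPM in wild type and 60.5, 152 and 189 CPM in the other group, again with library 1 the lowest.

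The 15 glutamate receptor subunit genes were divided as well, with 6 above 0 and 9 below it and a median of -0.13. That median was 0.12 without library 1 labelled Tfap2b+/- and 0.05 with the regional components. In 4 of the 15 genes the libraries labelled Tfap2b+/- were all higher, against 8.84% of all genes tested. In 1, the NMDA receptor gene Grin1, they were all lower, against 7.63% of all genes tested. Grin1, named after its values were seen, was at 517, 487 and 485 CPM in wild type and 407, 481 and 471 CPM in the other group (log2 fold -0.13). The kainate receptor gene Grik2 was at 53.9, 58.7 and 59.2 CPM in wild type and 76.6, 69.8 and 92.2 CPM in the other group. Grin3a, an NMDA receptor subunit that lowers calcium entry, was at 55, 60.6 and 60.8 CPM against 98.9, 64.8 and 78.8 CPM. The log2 folds were 0.47 for Grik2 and 0.46 for Grin3a.

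**Figure D3:**
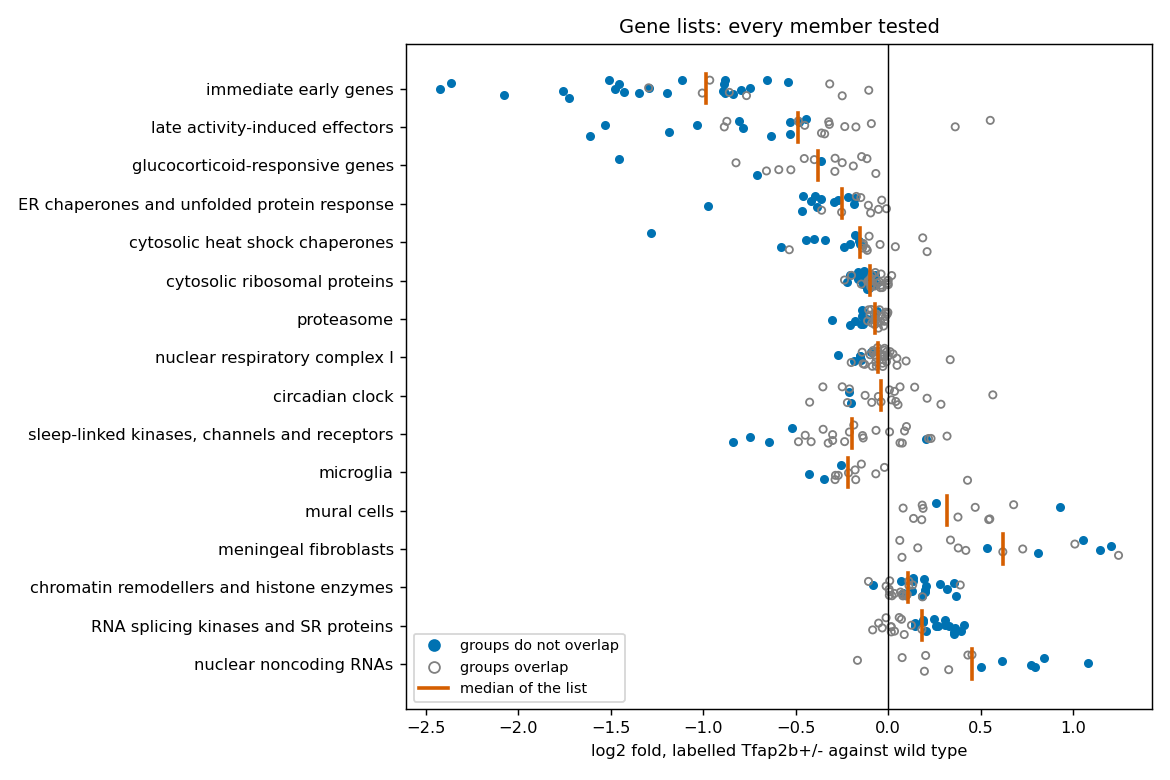
Log2 fold, libraries labelled Tfap2b+/- against wild type, for every tested member of 16 lists. Filled points are members whose groups did not overlap, open points are the others, and the bar is the median. All 30 immediate early genes and all 21 ER chaperones lie left of 0, and 12 of 13 nuclear noncoding RNAs lie right of it.

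Noncoding RNAs that stay in the nucleus were higher in the libraries labelled Tfap2b+/-. Of 13 tested, 12 had a log2 fold above 0, with a median of 0.45 and of 0.50 with the regional components. The groups did not overlap in 6, and 4 met the rule for every library. Of all genes tested 8.84% were higher without overlap, and of genes at 1 CPM or more 1.81% met the rule as higher. Kcnq1ot1, the imprinted antisense RNA of the Kcnq1 locus, stood at 32.0, 27.2 and 34.2 CPM in wild type and 75.6, 67.9 and 54.0 CPM in the other group (log2 fold 1.08, SE 0.18, adjusted p = 0.205). Malat1, a nuclear speckle RNA, stood at 832, 677 and 763 CPM against 1492, 1388 and 1195 CPM, with all 3 Tfap2a+/- libraries between 737 and 1077 CPM (log2 fold 0.84, SE 0.16, adjusted p = 0.260). Meg3 and the imprinted antisense RNA Airn had log2 folds of 0.77 and 0.79. Without wild-type library 2 and library 1 labelled Tfap2b+/- the list's median was 0.17.

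The share of fragments that fell in no annotated exon on the counted strand was also higher. It was 8.86%, 7.30% and 7.88% in the wild-type libraries and 11.8%, 11.1% and 11.1% in those labelled Tfap2b+/-. The Tfap2a+/- libraries had 8.94%, 8.07% and 8.96%, so all 3 libraries labelled Tfap2b+/- lay above the other 6. Group means were 8.01% ± 0.788 (SD, n = 3) and 11.3% ± 0.426 (SD, n = 3), a difference with an exact permutation p of 0.1, two-sided, the smallest that 3 against 3 allow (0.267 adjusted over 8 library measures). More genes had counts as well, 25484 ± 354 (SD, n = 3) against 24192 ± 368 (SD, n = 3), with the same exact permutation p of 0.1. Here the Tfap2a+/- libraries overlapped, since their library 1 had 25214 such genes and library 3 labelled Tfap2b+/- had 25096. Mean counts in genes were 2.73e+07 in the group labelled Tfap2b+/- and 2.51e+07 in wild type, and the part of depth in this number was not tested.

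Gene types differed too. Of 512 tested loci of the type TEC, transcribed loci, mostly without introns, that the annotation sets aside for experimental follow-up, 83.0% had a fold above 0, with a median of 0.63. In 37.9% of them all 3 libraries labelled Tfap2b+/- were above wild type, against 8.84% of all genes. Among 62 sense-intronic loci, which lie within introns of other genes, 87.1% were higher, with a median of 0.71. The summed TEC loci held 0.111% to 0.125% of counts in the libraries labelled Tfap2b+/- and 0.074% to 0.10% in the other 6. For sense-intronic loci these shares overlapped, at 0.0561% to 0.0715% against 0.0446% to 0.0630%. For 624 lincRNA genes the median was 0.20, and for 14756 protein-coding genes it was -0.02. Of the 267 higher genes that met the rule for every library, 54 were TEC, 32 lincRNA, 14 antisense and 137 protein-coding. Of the 69 lower ones, 62 were protein-coding. The part of unspliced RNA in these differences was not tested.

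Exon length moved with the fold among protein-coding genes, which were split by merged exon length into 5 classes of equal size. In class 1, the shortest, the median log2 fold was -0.06, 4.54% were higher without overlap and 11.6% lower. In class 5, the longest, it was 0.03, with 12.7% higher and 4.27% lower. Classes 2, 3 and 4 had medians of -0.04, -0.03 and -0.00, in order of length. In the list of glutamate receptor genes above, 8 of 15 were in the longest class and none in the shortest. Of 30 immediate early genes 8 were in the shortest class and 2 in the longest, and of 24 late effectors 6 and 1. Of 21 ER chaperones 8 were in the shortest class and 1 in the longest, and of 21 cytosolic heat shock chaperones 3 and 3. The part of exon length in the folds of these lists was not tested.

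**Figure D4:**
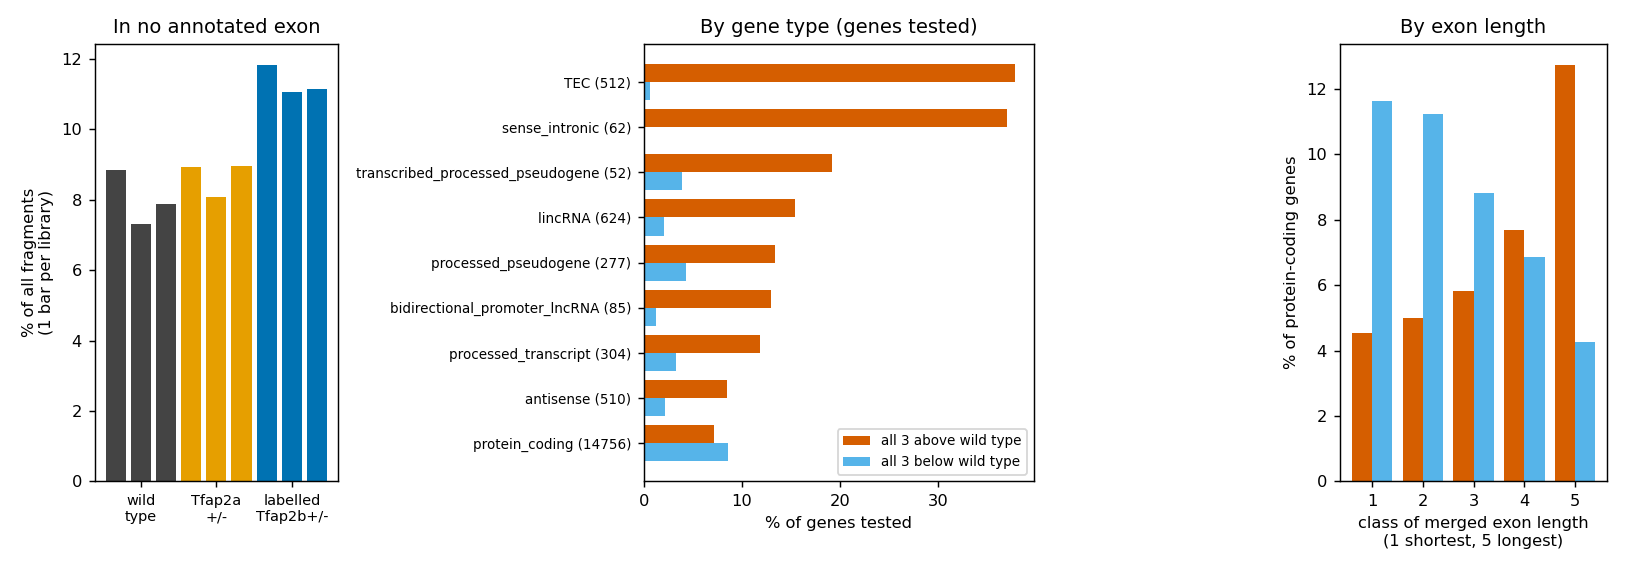
Left, percent of fragments in no annotated exon, 1 bar per library. Middle, percent of genes of each type (number tested in brackets) whose 3 libraries labelled Tfap2b+/- lay all above (orange) or all below (blue) the 3 wild-type libraries. Right, the same percentages for protein-coding genes by class of merged exon length. TEC loci reach 37.9% above, and class 5, the longest, of protein-coding genes reaches 12.7%.

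Genes for RNA splicing were higher by small amounts. Of 29 kinases, SR proteins and related factors 25 had a log2 fold above 0, with a median of 0.18 (0.19 with the regional components), and 16 had groups that did not overlap, all of them higher. Among all genes tested 8.84% were higher without overlap. Luc7l2, a factor of the U1 particle, was at 166, 150 and 152 CPM in wild type and 193, 186 and 200 CPM in the other group (log2 fold 0.31, SE 0.07, adjusted p = 0.317). Clk4, a kinase that phosphorylates SR proteins, was at 36.9, 30 and 33.8 CPM against 42.4, 41.1 and 45.6 CPM (log2 fold 0.36, adjusted p = 0.320). Its relative Clk1 (0.39), the SR protein gene Srsf5 (0.36) and the speckle scaffold genes Srrm2 (0.36) and Srrm1 (0.31) had like log2 folds. Of this list 13 genes were in the longest class and none in the shortest.

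Chromatin enzymes had a median log2 fold of 0.11 (0.09 with the regional components), with 31 of 34 above 0. Kmt2d, a histone H3 lysine methyltransferase that marks enhancers, was at 166, 174 and 188 CPM in wild type and 213, 227 and 234 CPM in the group labelled Tfap2b+/- (log2 fold 0.35, SE 0.08, adjusted p = 0.292). Its relative Kmt2a had a log2 fold of 0.37. In this list 30 of 34 genes were in the longest class.

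Medians lay below 0, by small amounts, in lists of short genes. The median log2 fold was -0.10 for 41 ribosomal protein genes, 39 of them below 0, and 29 of the 41 were in the shortest class. It was -0.06 for 37 nuclear genes of respiratory complex I, of which 27 were in the shortest class. For 31 proteasome genes, of which 12 were in the shortest class and none in the longest, it was -0.07, with all 31 below 0 and 10 without overlap. Among all genes tested 7.63% were lower without overlap. With the regional components the 3 medians were -0.14, -0.07 and -0.09. In each of these 3 lists no more than 2 members had an unadjusted p under 0.05.

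Of the 10 higher genes of smallest p, 4 were protein-coding: Gm14443, with a log2 fold of 1.39, and Ubn2, Med12 and Pou2f1, with smaller folds and tight groups. Ubn2, part of a histone chaperone complex for variant H3.3, was at 68.2, 63.7 and 70.4 CPM in wild type and 96.9, 88.2 and 97.1 CPM in the group labelled Tfap2b+/- (log2 fold 0.48, SE 0.08, adjusted p = 0.195). Med12, on the X chromosome, encodes a subunit of the Mediator kinase module. Its values were 26.3, 25.1 and 27.1 CPM against 40.2, 37.2 and 35.7 CPM (log2 fold 0.53, SE 0.08, adjusted p = 0.195). Pou2f1 (OCT1), an octamer-binding factor, was at 35.4, 33.4 and 33.7 CPM against 48.7, 46.8 and 44.7 CPM (log2 fold 0.45, SE 0.07, adjusted p = 0.195). In these 3 genes the spread within a group was smaller than the gap between groups, and the Tfap2a+/- libraries lay between 27.0 and 31.0 CPM for Med12 and between 35.4 and 38.8 CPM for Pou2f1. Ubn2 and Pou2f1 have merged exons of 21438 and 16597 bases and Med12 of 7704, all in the longest class.

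Cirbp, the cold-inducible RNA-binding protein, was named after its values were seen. It was at 35.0, 36.7 and 32.2 CPM in wild type and 50.2, 45.4 and 46.5 CPM in the other group (log2 fold 0.45, SE 0.08, adjusted p = 0.212). Its relative Rbm3, also induced by cold, had overlapping groups and a log2 fold of 0.13.

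Among the lower genes of smallest p were Gm15446, a predicted protein-coding gene, and the zinc finger gene Zfp617. Gm15446 stood at 16.2, 14.9 and 19.2 CPM in wild type and 9.39, 10.3 and 10.3 CPM in the group labelled Tfap2b+/- (log2 fold -0.74, SE 0.11, adjusted p = 0.195). Zfp617 was at 18.7, 17.5 and 17.3 CPM against 12, 12.7 and 13.2 CPM (log2 fold -0.50). Gm14443, the fourth of the higher protein-coding genes above and one of a family of similar zinc finger genes, was at 1.36, 1.02 and 1.24 CPM in wild type and 3.32, 2.80 and 3.36 CPM in the other group (log2 fold 1.39, SE 0.21, adjusted p = 0.195). Reads of genes with near-identical copies can be lost or shifted in counting, so the Gm14443 value is uncertain. Wdr83os, a short gene, had a log2 fold of -0.42. The noncoding loci Gm42031 and Gm45640 had log2 folds of -2.01 and -1.12. Several loci of smallest p among the higher ones were near the limit of counting. Tdpx-ps1, a processed pseudogene, had 2, 3 and 2 counts in the wild-type libraries and 31, 42 and 23 counts in the others, and reads of its parent gene could be placed there. Likewise Gm7335, 4833422M21Rik, Gm20371 and D230049E03Rik did not exceed 0.376 CPM in any wild-type library.

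Among the higher genes that met the rule for every library were 2 of 6 tested markers of serotonergic neurons, Slc6a4 and Tph2. Of genes at 1 CPM or more, 1.81% met the rule as higher. Of 4 tested markers of dopaminergic and noradrenergic neurons, 1 met it, Th. The groups overlapped in the other members of that list, Slc6a3, Slc18a2 and Nr4a2, and Nr4a2 had a log2 fold of -0.97. Slc6a4, the serotonin transporter, had 0, 3 and 3 counts in the wild-type libraries and 725, 14 and 15 counts in those labelled Tfap2b+/-, so library 1 accounted for most of its level. Tph2, the enzyme of serotonin synthesis in the brain, was at 0.517, 0.941 and 1.04 CPM in wild type and 40.9, 1.04 and 1.55 CPM in the other group. Th, the rate-limiting enzyme of dopamine synthesis, also made by olfactory bulb neurons, was at 1.08, 0.866 and 0.811 CPM against 11.6, 1.28 and 17.6 CPM. Slc6a4 had 1 of the 10 widest gaps, but for Tph2 library 2 labelled Tfap2b+/- lay level with wild-type library 3, and for Th it lay just above wild-type library 1, so their log2 folds of 4.10 and 3.46 came from 1 library for Tph2 and 2 for Th. Library 1 was also the highest for markers of serotonergic neurons and library 3 for olfactory bulb markers, and the part of regional make-up in these values was not tested.

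Tex15 and Adamts19 were less tied to 1 library. Tex15, a gene of the male germ line, was at 0.986, 1.54 and 0.772 CPM in wild type and 3.92, 3.77 and 4.64 CPM in the group labelled Tfap2b+/- (log2 fold 1.89, SE 0.31, adjusted p = 0.196). Adamts19, a secreted metalloprotease, was at 0.235, 0.527 and 0.309 CPM against 1.55, 2.97 and 3.54 CPM (log2 fold 2.88, SE 0.47, adjusted p = 0.195). For Tex15 the group labelled Tfap2b+/- was tight, while wild type ran from 0.772 to 1.54 CPM. The Tfap2a+/- libraries lay between 0.967 and 1.68 CPM for this gene. Tyrp1, a melanosome enzyme, had 0, 4 and 2 counts in wild type and 31, 17 and 115 in the other group. The other higher loci of the widest gap were Gm35021, Gm42583, Gm44560, Gm44667, Gm45809 and Gm14443, of which Gm35021 reached 4.90 and 2.72 CPM in 2 Tfap2a+/- libraries as well. Lower ones beside the activity genes were Zfp524 (-1.10), Gm5784 (-1.47), Serinc2 (-1.34), Lipg (-1.75), Gm45441 (-1.47) and 1700016P03Rik (-1.58), given as log2 folds.

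**Figure D5:**
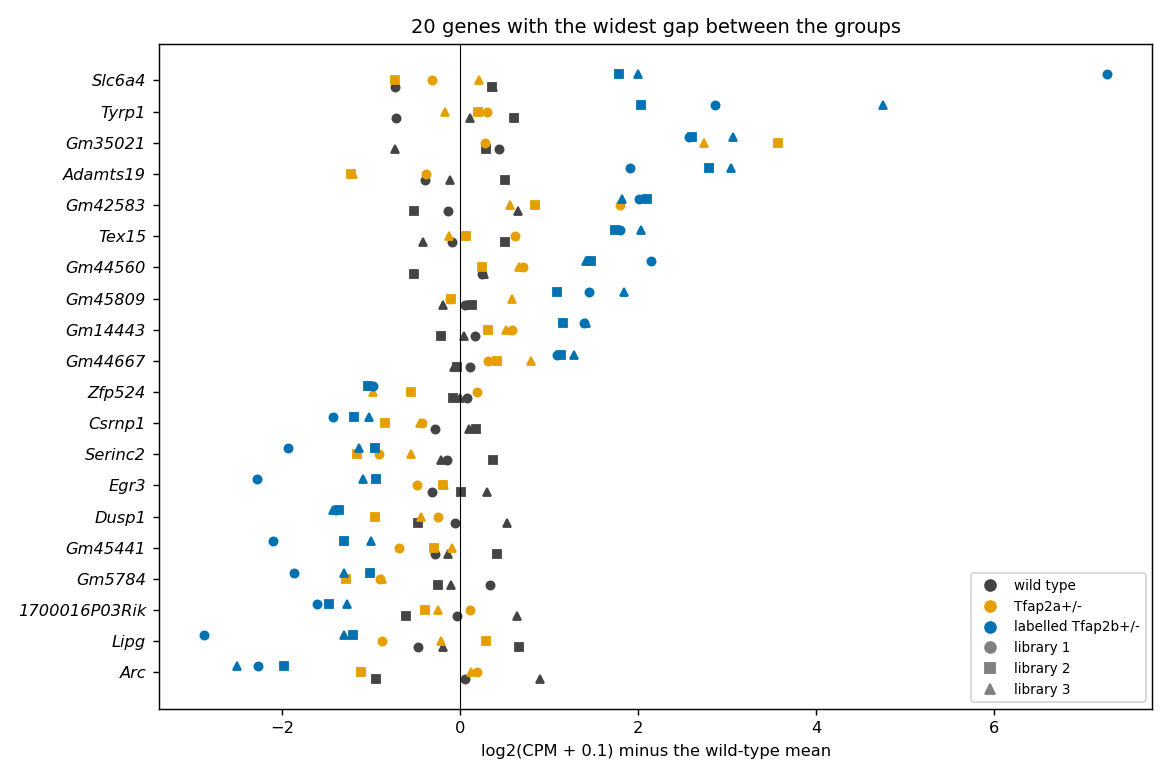
The 10 higher and 10 lower genes with the widest gap among those that met the rule for every library. The x axis gives log2 of CPM plus 0.1, minus the wild-type mean, with 1 point per library and the Tfap2a+/- libraries drawn in the middle row of each gene for reference. Slc6a4 lies farthest out in library 1 labelled Tfap2b+/-, while the 3 libraries of Tex15, Dusp1 and Zfp524 lie close together.

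Markers of the meninges, the membranes around the brain, were higher. All 15 fibroblast markers had a log2 fold above 0, with a median of 0.62 and of 0.70 with the regional components, and 9 had an unadjusted p under 0.05. Among all genes tested 6.46% were higher at that p. Their summed level was between 165 and 198 CPM in wild type and at 229, 195 and 322 CPM in the other group, ranges that overlapped. Crabp2, a retinoic acid carrier, was at 1.27, 1.35 and 1.74 CPM against 2.86, 2.73 and 4.53 CPM (log2 fold 1.21, SE 0.26, adjusted p = 0.266). Aldh1a2, which makes retinoic acid, was at 7.94, 9.11 and 9.89 CPM against 14.5, 11.2 and 21.6 CPM. Ogn, a small matrix proteoglycan, had a log2 fold of 1.05. Library 3 labelled Tfap2b+/- was the highest for all 3 genes, and without it the list's median was 0.35, with 12 of 15 above 0 and 2 at an unadjusted p under 0.05. The mural cell list had all 12 members above 0 with a median of 0.32, and its smooth muscle myosin gene Myh11 was at 10.7, 15.2 and 12 CPM against 18.2, 18.8 and 35.2 CPM. The Tfap2a+/- libraries also lay above the wild-type mean, by 0.38, 0.10 and 0.66 log2 units for meningeal markers and 0.18, 0.17 and 0.37 for mural markers. Against Tfap2a+/- the median log2 folds of the 2 lists were 0.21 and 0.09.

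Microglial markers had a median log2 fold of -0.21 (-0.11 with the regional components), with 12 of 13 below 0. This too is a list of short genes, 8 of 13 in the shortest class and none in the longest. The complement gene C1qc was at 30.9, 29.3 and 28.4 CPM in wild type and 18.1, 23.2 and 24.6 CPM in the group labelled Tfap2b+/- (log2 fold -0.43, SE 0.12, adjusted p = 0.366), and its partner C1qb had -0.35. Summed microglial markers lay between 468 and 537 CPM in wild type and at 365, 495 and 509 CPM in the other group, with library 1 the lowest. Without that library the median was -0.08.

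Folds of the thalamic, tectal and choroid plexus lists depended on single libraries. The medians of the cerebellar and cortical layer lists kept their sign in every alternative. The thalamic list had all 13 members above 0 and a median of 0.97, but -0.06 without library 2 labelled Tfap2b+/-. Tcf7l2, a factor of thalamic neurons, was at 26.2, 21.2 and 14.6 CPM in wild type and 148, 91.8 and 5.69 CPM in the other group, so library 3 lay below and the other two above. The tectal and midbrain list had all 14 tested members above 0 with a median of 1.63, but 0.28 without library 1 labelled Tfap2b+/- and 3.53 without wild-type library 3. The choroid plexus list had a median of -2.36, and 0.60 without wild-type library 2.

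Set against the Tfap2a+/- libraries directly, no gene passed an adjusted p of 0.05 either (0 of 17355, 0.0%), and 1997 (11.5%) had an unadjusted p under 0.05. This comparison uses the same libraries labelled Tfap2b+/- as the one against wild type, so the values below are not independent of those above. The median log2 fold against Tfap2a+/- was -0.65 for immediate early genes, -0.52 for late effectors, -0.25 for ER chaperones, 0.49 for nuclear noncoding RNAs and 0.39 for TEC loci. For glucocorticoid-responsive genes it was -0.00, with 8 higher and 8 lower. Arc was at 283, 115 and 271 CPM in the Tfap2a+/- libraries (log2 fold -2.08 for Tfap2b+/- against Tfap2a+/-), Dusp1 had a log2 fold of -0.88 and Vgf of -0.63. Sgk1 had -0.05 against Tfap2a+/-, where its level was between 41.8 and 56.4 CPM, close to the libraries labelled Tfap2b+/-.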

How the data were processed

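Per the labels' protocols, 500 ng of total RNA from 20 to 80 mg of tissue was taken through poly(A) selection, random priming and a strand-keeping second strand, with 11 PCR cycles and paired reads of 75 bp. The authors deposited raw counts per gene for each library, in 3 columns by strand. Per the submitters' processing notes the tools include cutadapt 2.4 and STAR 2.6.1d, with GRCm38.p6 as the build, and edgeR without a version. As to the release of the annotation, it was not given in the sources used here. The reverse-strand column (number 4) was used, since the forward-strand column held 4.16% to 4.94% of the counts of both strands, and the 4 summary rows were left out of library sizes and tests.

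Counts were fitted with edgeR 4.0.16 (R 4.3.3) by its quasi-likelihood test over all 9 libraries, with genotype as the factor, TMM scaling and the default filter on low counts. P-values were adjusted by Benjamini-Hochberg over 17355 genes, and adjusted p-values in the report are from this test. CPM uses the TMM-scaled library size, and log2 CPM a prior count of 2. Symbols, positions and types came from GENCODE release 21 for mouse, which held 54409 of the 54446 gene IDs. The script was tested on simulated data. DESeq2 1.42.0, other scalings, filters, the unstranded column, a replicate block, regional covariates and leaving out each library were run as alternatives.

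Named genes were the AP-2 genes, the 10 higher and 10 lower genes of smallest p, the 10 higher and 10 lower with the widest gap among those that hold in every library, up to 6 members of each list by p (12 for immediate early genes), and genes that check tissue, sex and quality. Outside that rule, and chosen after their values were seen, are Fos, Egr1, Per1, Klf4, Junb, Ptgs2, Xbp1, Manf, Hsp90ab1, Hspa1a, Airn, Chrm1, Grin1, Cirbp, Rbm3, Sertad1 and Ccn1. The gene lists and the comparison itself were chosen with earlier results of these data known.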

Additional observations from a re-analysis of the deposited data

Results flagged for a closer look

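The share of fragments in no annotated exon on the counted strand lies outside the gene counts that the comparisons use. Its mean in the libraries labelled Tfap2b+/- was 11.3% against 8.01% in wild type, and each of the 3 libraries lay above all 6 others. The share of counts in TEC loci was likewise higher in these 3 libraries than in the other 6, at 0.111% to 0.125% against 0.074% to 0.10%, while that of sense-intronic loci overlapped. The part of the no-exon share in the differences of TEC, sense-intronic and nuclear noncoding RNAs was not tested.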

How the results depend on the processing

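DESeq2 called 175 genes where edgeR called 0. With 1 library left out the edgeR count was 0 to 1, and that gene, Rps3a3, was called without library 3 labelled Tfap2b+/-. At an unadjusted p under 0.05 the counts with 1 library left out were 781 to 1411 higher and 329 to 1315 lower, the lowest lower count without library 1 labelled Tfap2b+/- and the highest without library 3. Fitting the 6 libraries alone gave 464 lower. Genes without overlap numbered 2156 to 3013 higher and 1746 to 2917 lower with 1 library left out, where fewer libraries make such gaps easier to reach. Without both wild-type library 2 and library 1 labelled Tfap2b+/-, an alternative chosen after seeing the data, 702 were higher and 307 lower at that p, and 3332 and 3022 did not overlap. A gap of at least 0.25 log2 units left 169 higher and 43 lower genes that hold in every library, a mean of at least 5 CPM left 77 and 49, and at least 1 CPM in each group, chosen after seeing the data, left 185 and 61. Of 99 named genes, 95 kept their direction in the alternatives run. Exceptions were Klf4 (-0.30 to 0.26 with 1 library left out) and Per1 (-0.45 to 0.016), both above 0 without wild-type library 3. A further exception, Tfap2b, was at -0.21 without the pair of libraries and at 0.32 to 3.44 with 1 library left out. Tfap2a gave -0.36 under regional covariates, -0.41 to 1.08 with 1 library left out (lowest without library 1 labelled Tfap2b+/-) and -0.74 without the pair. Of all 43 lists, 20 had a median that changed sign in at least 1 alternative, and of the 21 whose median is given here 6 did: tectum and midbrain to -0.25 with regional covariates, which were built in part from these genes, and -0.081 without the pair (0.28 to 3.53 with 1 library left out), thalamus to -0.065 without library 2 labelled Tfap2b+/- (at most 1.41 with 1 library left out), olfactory bulb to -0.27 without library 3 of that group (at most 0.83 with 1 left out and 0.91 without the pair), choroid plexus to 0.60 without wild-type library 2 (at lowest -2.90 with 1 left out) and 0.78 without the pair, glutamate receptors to 0.048 with regional covariates, 0.091 without the pair and 0.12 without library 1 labelled Tfap2b+/- (at lowest -0.21 with 1 left out), and clock genes to 0.018 without that library and 0.047 without wild-type library 3 (at lowest -0.18). The causes of these changes were not tested. Deviations of same-numbered libraries from their group means had correlations of -0.18, 0.05 and -0.15. With 3 libraries a group and uneven regional make-up, a small effect of a shared day or batch could go unseen here. The labels do not say whether the numbers pair the samples. The replicate block gave 0 called genes, and 999 higher and 719 lower at an unadjusted p under 0.05. At the depth of these libraries, loci with a few counts per library, such as Tdpx-ps1 and Slc6a4 in wild type, give no reliable fold.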

Other observations

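Rps3a3, a processed pseudogene of a ribosomal protein on chromosome 13, was at 20.5 and 21.2 CPM in libraries 1 and 2 labelled Tfap2b+/- and at 0.490 CPM in library 3. The 3 wild-type libraries had 0.235, 0.715 and 0.618 CPM, and the Tfap2a+/- libraries had between 0.184 and 0.411 CPM. Library 3 was thus within the range of the other groups. The gene was singled out after its values were seen, because it is the one gene that edgeR called with library 3 left out (log2 fold 5.28, adjusted p = 0.0100). Its reads may come from its parent gene or from other copies, which was not tested.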
